A study of Homo sapiens with 30 samples.

Results

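The study named 10 candidate targets of the microRNA miR-1 in acute myeloid leukemia (AML) cells, and these genes are described here across every group of libraries. They are HIPK2, TIMP3, KDM5C, DLG4, UBQLN1, TCF23, ZDHHC14, ZFP36L1, SLC39A10 and SLC5A3. The study took them from genes that were lower in MV4-11 cells overexpressing miR-1 and that a prediction tool gave a miR-1 site, so they were chosen by their measured fall in those libraries and by the presence of a site. All 10 were found by gene symbol in both count tables, as 10 of 60675 genes listed in the overexpression series and 10 of 58051 in the knockout series. All 10 passed the filter on low counts in both series, among 17542 and 14490 genes. In the knockout series ZFP36L1 passed it only through the MV4-11 knockout libraries.

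RNA was sequenced in 30 libraries from 3 human AML cell lines, in 10 groups of 3 libraries. For miR-1 overexpression (the overexpression series), Molm-14 and MV4-11 cells were transduced with a GFP lentivirus whose EF1a promoter drives an insert from the host gene of MIR1-2 (OE), or with the GFP vector lacking that insert (EV). For the knockout series, THP-1, Molm-14 and MV4-11 cells received a lentiviral CRISPR/Cas9 vector with GFP and 1 guide RNA against MPC1 (KO), which encodes part of the mitochondrial pyruvate carrier, or an empty vector (EV). MV4-11 and Molm-14 carry an internal tandem duplication in the receptor kinase FLT3, and THP-1 is a monocytic line that does not. Whether the 3 libraries of a group came from separate cultures, or a KO line from 1 clone, is not given in the sources used here, so p-values measure the spread between these libraries, which may be technical.

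Libraries of the overexpression series held 15543301 to 20939985 counts and those of the knockout series 5339360 to 9106478. In the KO groups MPC1 stood at 44.1% of EV in MV4-11, 48.5% in Molm-14 and 55.8% in THP-1, with no overlap between KO and EV in any line, and MIR133A1HG, a host transcript of MIR1-2, had counts in all OE libraries and 0 in all others. The myeloid genes CD33, SPI1, CSF1R, LYZ, CEBPA and FLT3 were detected in all 30 libraries, while no T cell, B cell, erythroid or fibroblast marker measured passed 2 counts-per-million (CPM) in any. Of the epithelial markers EPCAM was at or near 0 and the keratin KRT18 reached 32.9 CPM in the knockout series and 28.0 in the overexpression series. A pair of MV4-11 libraries stood apart by interferon-stimulated genes: the summed level of 14 such genes was 802.6 CPM in OE library 1 and 272.2 CPM in EV library 3, against 151.5 to 162 CPM in the other 4. Values for MV4-11 OE are therefore also given without these 2 libraries.

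miR-1 is a small RNA best known from heart and skeletal muscle. A mature miRNA guides an Argonaute protein to messenger RNAs whose 3′ untranslated region (UTR) pairs with its seed, bases 2 to 8 from its 5′ end, and the bound messenger is usually translated less and degraded sooner. The longest canonical site, the 8mer, pairs with the whole seed and has an A opposite base 1, the 7mer-m8 site lacks that A, and the 7mer-A1 site lacks the pair with base 8.

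The mature miR-1 sequence is shown with its seed in capitals, beside the 2 other human miRNAs that share this seed and so would match the same sites (RefSeq, GRCh38.p14). Mature miR-1 is encoded identically by MIR1-1 on chromosome 20 and MIR1-2 on chromosome 18.
hsa-miR-1-3p: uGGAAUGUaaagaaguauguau
hsa-miR-206: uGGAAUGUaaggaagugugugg
hsa-miR-613: aGGAAUGUuccuucuuugcc

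The best seed match in the 3′ UTR of each gene's canonical transcript (GENCODE 44, GRCh38) is shown in a window of 30 bases, written 5′ to 3′ on the messenger strand, with the bases that match in capitals. They are printed because they separate the genes into those with an 8mer, a 7mer-m8 and only a 7mer-A1 site. The 8mer sites lay in HIPK2 (chr7:139567688-139567717, minus strand), TIMP3 (chr22:32860497-32860526, plus strand), DLG4 (chr17:7190360-7190389, minus strand), TCF23 (chr2:27153713-27153742, plus strand) and ZFP36L1 (chr14:68787886-68787915, minus strand).
HIPK2: aggagtgacttggccacaagACATTCCAgc
TIMP3: cttgtttgaagaaaatcatgACATTCCAag
DLG4: tcccccatcctctcccacacACATTCCAga
TCF23: ccatacatcttgcattgcttACATTCCAgt
ZFP36L1: ttccacgtgcccatctcaagACATTCCAct

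The 7mer-m8 sites lay in UBQLN1 (chr9:83660434-83660463, minus strand), SLC39A10 (chr2:195737237-195737266, plus strand) and SLC5A3 (chr21:34106139-34106168, plus strand).
UBQLN1: tcccaaactgttggggtggtACATTCCttt
SLC39A10: ctacatttcttttggctccaACATTCCttt
SLC5A3: aactacatttcttgcaaagtACATTCCttt

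In KDM5C (chrX:53192652-53192681, minus strand) and ZDHHC14 (chr6:157673492-157673521, plus strand) the best match was a 7mer-A1 site.
KDM5C: tggctggggctgggccatcacCATTCCAga
ZDHHC14: taatatttgaaacagacctgcCATTCCAtt

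The motifs searched were ACATTCCA (8mer), ACATTCC (7mer-m8), CATTCCA (7mer-A1) and CATTCC (6mer), each on the messenger strand only, and each longer motif holds the shorter ones. An 8mer was present in 5 of the 10 genes, beside 5.32% of the 12565 tested genes with a 3′ UTR, and an 8mer or 7mer-m8 site in 8 of 10, beside 13.1%. A 7mer-A1 site or better was present in all 10, beside 21.9%. The sites were part of how the genes were chosen, so these counts describe the choice. The genes also had long 3′ UTRs, with a median of 3592.5 bases beside 1295 over all genes, and longer UTRs hold more matches. Among tested genes with a UTR of like length, an 8mer was present in 26.8% for HIPK2 (UTR of 11357 bases), 10.9% for TIMP3 and 4.75% for ZFP36L1 (1871 bases), while a 7mer-m8 site or better was present in 49.7% for SLC5A3 (8905 bases) and a 7mer-A1 site or better in 48.6% for ZDHHC14.

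The genes differed in how many matches they held and where. SLC39A10 had 3 sites of at least 7 bases, the most of any, at 1474, 1918 and 2217 bases after the stop codon in a UTR of 2659 bases. ZFP36L1 had an 8mer 232 bases before the UTR's end, a 7mer-A1 site and a 6mer, and TIMP3 an 8mer and a 7mer-A1 site. DLG4, UBQLN1, TCF23 and SLC5A3 had 1 match each, that of SLC5A3 only 100 bases before the end of its UTR.

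**Figure D1:**
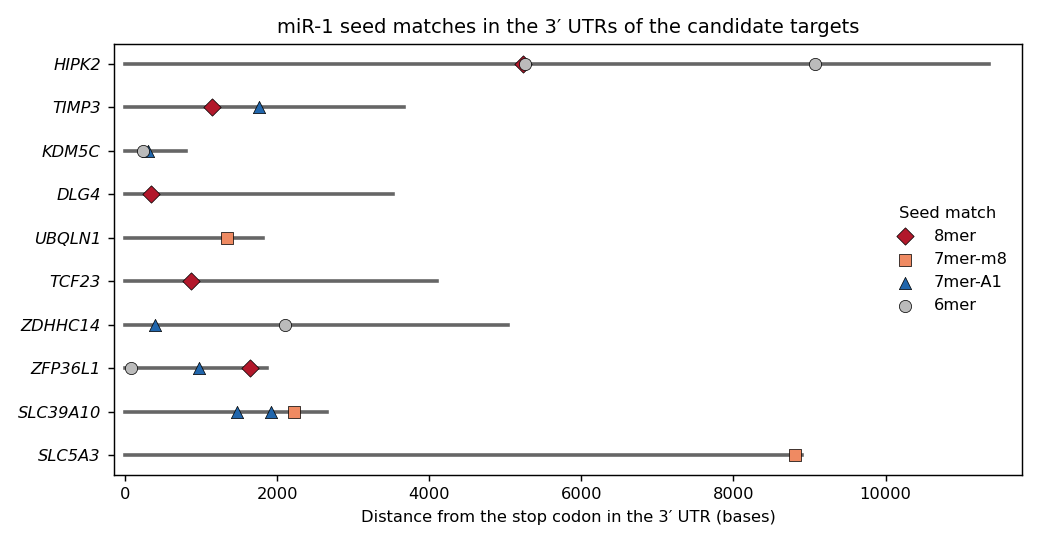
Position of each miR-1 seed match, in bases after the stop codon, along the 3′ UTR of the canonical transcript of each gene (grey line). Diamonds are 8mer, squares 7mer-m8, triangles 7mer-A1 and circles 6mer matches. The UTRs run from 809 bases in KDM5C to 11357 in HIPK2, and the 8mer of DLG4 lies nearest the stop codon of the 5 8mers, at 340 bases.

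The comparison of OE with EV in MV4-11 is the one on which the genes were named, so their values there are a description and no test was applied to them. All 10 had a negative log2 fold change, from -0.19 to -1.24, with a median of -0.27 beside 0.0069 over all 17542 genes tested. In 8 of the 10 every OE library was below every EV library. Over all genes the CPM of the groups were separated in that direction for 4.11%, and edgeR called 0.177% of genes in either direction at a false discovery rate (FDR) under 5%. These shares are given for scale and nothing is read from the members' count.

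Among the regulators of RNA and transcription, ZFP36L1 encodes a zinc finger protein that binds AU-rich elements and brings about mRNA decay. Its level was 8.59, 5.31 and 3.33 CPM in the 3 OE libraries of MV4-11 and 13.2, 9.78 and 17.6 CPM in the 3 EV libraries. The groups did not overlap, but both were widely spread, and the log2 fold change was -1.24 (SE 0.302), the largest of the 10. TCF23, a basic helix-loop-helix transcription factor, stood at 5.55, 6.50 and 4.38 CPM in OE and 7.64, 6.02 and 9.53 CPM in EV. OE library 2 was above EV library 2, so the groups overlapped, and the log2 fold change was -0.49 (SE 0.210). HIPK2 is a nuclear kinase that phosphorylates p53 and other transcription regulators. It measured 43.1, 37.7 and 33.6 CPM in OE and 45.2, 47.4 and 53.5 CPM in EV, with OE below EV throughout and a log2 fold change of -0.35 (SE 0.083). KDM5C, a histone demethylase that removes methyl groups from lysine 4 of histone H3, measured 60.4, 59.4 and 58.5 CPM in OE and 76.0, 64.9 and 75.3 CPM in EV. Its OE libraries lay within 2 CPM of each other and below all EV libraries, with a log2 fold change of -0.28 (SE 0.060).

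Among the genes of the cell surface, membranes and protein turnover, TIMP3 encodes an inhibitor of matrix metalloproteinases that binds to the extracellular matrix. It measured 5.13, 5.47 and 4.88 CPM in OE and 10.5, 7.32 and 9.12 CPM in EV. The groups were apart and OE stood at 57.7% of EV, a log2 fold change of -0.79 (SE 0.193). DLG4, the scaffold protein PSD-95 of synapses, measured 26.3, 23.5 and 22.1 CPM in OE and 27.7, 26.8 and 32.5 CPM in EV. The highest OE library and the lowest EV library differed by less than 1 CPM, and the log2 fold change was -0.27 (SE 0.095). UBQLN1, which carries ubiquitinated proteins to the proteasome, measured 114.8, 108.1 and 105.1 CPM in OE and 125.3, 119.0 and 128.8 CPM in EV. Its log2 fold change of -0.19 (SE 0.049) was the smallest of the 10. ZDHHC14, a palmitoyltransferase, measured 23.0, 26.4 and 22.9 CPM in OE and 25.7, 27.9 and 32.5 CPM in EV, which overlapped, with a log2 fold change of -0.25 (SE 0.091).

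Of the membrane transporters, SLC39A10 encodes the zinc importer ZIP10. It measured 66.5, 66.3 and 63.5 CPM in OE and 80.4, 74.2 and 81.7 CPM in EV, which did not overlap. SLC5A3 encodes the sodium-dependent importer of myo-inositol. It measured 141.1, 136.0 and 144.3 CPM in OE and 170.2, 172.2 and 165.6 CPM in EV. Both transporters were within a narrow range in each group, and both had a log2 fold change of -0.27 (SE 0.050 and 0.049), so that OE stood at 83.1% and 82.9% of EV. SLC5A3 and UBQLN1 had the smallest standard errors among the 10 and ZFP36L1 the largest.

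Without the 2 interferon-high libraries the 10 log2 fold changes remained negative, with a median of -0.27. ZDHHC14 moved from -0.25 to -0.12 and TCF23 from -0.49 to -0.31, and leaving out EV library 3 alone gave -0.15 and -0.31. ZFP36L1 was at -1.39, TIMP3 at -0.77, SLC5A3 at -0.29 and SLC39A10 at -0.25. In bulk RNA, fewer cells that express a gene and less RNA of it per cell cannot be told apart.

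**Figure D2:**
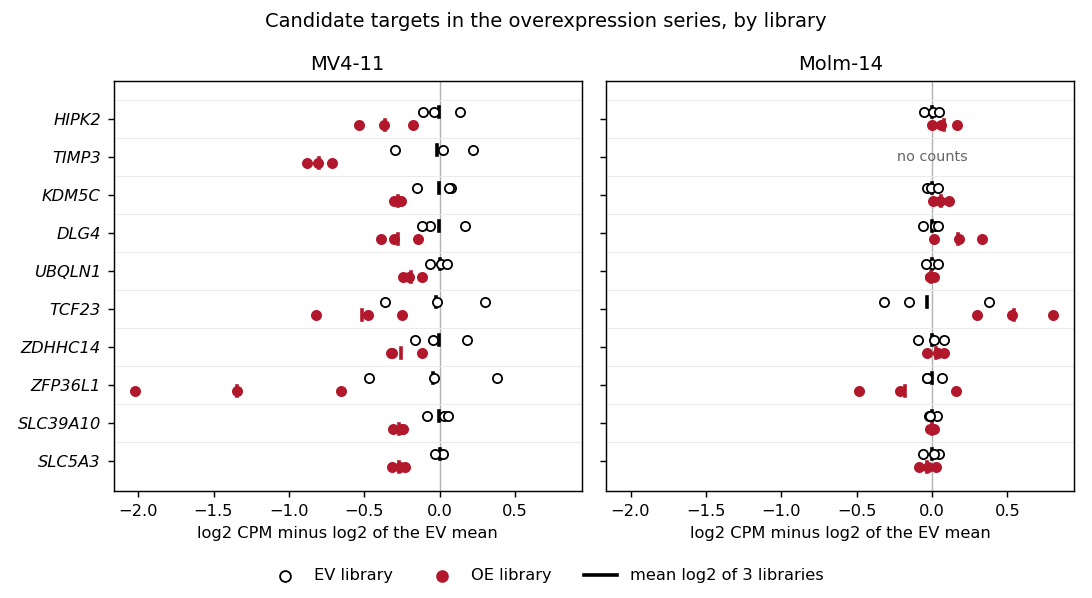
Level of each gene in each library of the overexpression series, as log2 CPM minus the log2 of the mean CPM of the EV libraries of the same line, for MV4-11 (left) and Molm-14 (right). Open circles are EV and filled circles OE libraries, and bars are means of 3. In MV4-11 the OE libraries lie to the left of EV for 8 of 10 genes, and in Molm-14 the groups overlap for all 9 genes with counts.

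Molm-14 libraries took no part in naming the genes, so the same vector could be tested there. None of the 9 genes that could be measured passed the test with OE in Molm-14. edgeR's quasi-likelihood test called 0 of 9 at an FDR under 5%, DESeq2 also called 0, and 1 of 9 had an unadjusted p under 0.05, beside 4.38% of all genes. The background in this comparison was 0.0057% of genes called, a single gene, MIR133A1HG, so in this fit of the whole series the test called almost nothing of any kind. With only the Molm-14 libraries in the fit, edgeR called 195 of 15714 genes, none of them among the candidates. In 0 of 9 did the groups separate, beside 14.9% of all genes. The log2 fold changes were negative for 4 genes and positive for 5, with a median of 0.03.

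TIMP3 had 0 counts in all 6 Molm-14 libraries, where 3 counts would correspond to 0.147 to 0.199 CPM, and so gave no fold change. SLC39A10 measured 164.2, 167.7 and 165.7 CPM in OE and 163.6, 169.8 and 164.6 CPM in EV. These libraries lay within 7 CPM of each other, and the log2 fold change was -0.0015 (95% confidence interval -0.10 to 0.10, FDR 1). SLC5A3 measured 105.7, 101.9 and 97.5 CPM in OE and 107.2, 104.6 and 99.6 CPM in EV, and its log2 fold change was -0.03 (interval -0.13 to 0.08). UBQLN1 was at -0.0062 (interval -0.11 to 0.09). The values of these 3 genes in MV4-11 were -0.27, -0.27 and -0.19, and the difference between the lines was not tested, because the MV4-11 values chose the genes.

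The other Molm-14 estimates were less precise or positive. KDM5C was at 0.06 (interval -0.06 to 0.18), HIPK2 at 0.08 (interval -0.09 to 0.25) and ZDHHC14 at 0.03 (interval -0.16 to 0.22). DLG4 measured 39.5, 43.9 and 35.1 CPM in OE and 35.3, 35.8 and 33.4 CPM in EV, with a log2 fold change of 0.18 (interval -0.01 to 0.38). TCF23 was the gene with an unadjusted p under 0.05, and its values were higher in OE. It measured 2.10, 2.54 and 1.79 CPM in OE and 1.89, 1.31 and 1.17 CPM in EV, on 20 to 43 counts a library, with a log2 fold change of 0.57 (SE 0.269, unadjusted p = 0.0492 and FDR 1 by edgeR). ZFP36L1 was at -0.15 (interval -0.83 to 0.52). Its MV4-11 value, on which it was chosen, was -1.24, with an interval of -1.90 to -0.57 that overlaps the one in Molm-14. The difference between the lines was not tested for this gene either.

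In the knockout series the same genes were read where MPC1 had been disrupted and no miR-1 vector was present. The paper reports that the microRNA itself rose with MPC1 disruption in the lines with the FLT3 duplication, and not in the other. Lack of the vector therefore does not mean that miR-1 was unchanged. Mature miR-1 was not read here, and whether it bears on the values below was not tested. Only SLC39A10, ZFP36L1 and TCF23 passed the test in any line, and SLC39A10 and ZFP36L1 were higher in MV4-11 KO while TCF23 was lower in Molm-14 KO. For ZFP36L1 this is a description, since its level in MV4-11 KO also carried it past the low-count filter. The comparisons of the 3 lines used separate EV libraries.

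In MV4-11, 2 of the 10 genes were called by edgeR at an FDR under 5%, both higher in KO, beside 5.41% of all genes called (3.17% higher). The count behind that share, 784 genes, rested on single libraries, being 133 without EV 3 and 1400 without EV 1. SLC39A10 rose from 59.2, 65.0 and 59.9 CPM in EV to 89.1, 83.1 and 88.4 CPM in KO. Every KO library was at least 18 CPM above every EV library, and the log2 fold change was 0.50 (SE 0.080, FDR 4.33e-04), a level of 141.6% of EV. ZFP36L1 had few counts, 9, 5 and 3 in EV (1.04, 0.672 and 0.462 CPM) and 15, 19 and 14 in KO (2.13, 2.38 and 1.76 CPM). Its groups did not overlap and the log2 fold change was 1.45 (SE 0.407, FDR 0.0354). ZFP36L1 passed the low-count filter of the series only through MV4-11 KO, the group where it was higher. All libraries of that group were at 1.76 CPM or more, against minima of 0.462 to 0.839 CPM in the other groups. Its call is therefore a description and not an independent test. This call rested on those few counts and was lost with DESeq2 (FDR 0.0884), with only the MV4-11 libraries in the fit (FDR 0.0530) and on leaving out EV 2, EV 3, KO 1 or KO 2 (FDR 0.112 to 0.186).

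The other 8 genes did not pass in MV4-11 KO. TIMP3 measured 3.01, 3.09 and 1.85 CPM in EV and 4.97, 4.25 and 4.14 CPM in KO, which did not overlap. Its log2 fold change was 0.72 (SE 0.222, FDR 0.0611, and 0.0450 with the replicate number as a block). DLG4 measured 7.07, 8.19 and 8.15 CPM in EV and 5.68, 4.75 and 6.90 CPM in KO, and ZDHHC14 19.3, 18 and 17.9 CPM in EV and 16.2, 16.2 and 14.9 CPM in KO. In both the KO libraries were all below EV, with log2 fold changes of -0.43 (SE 0.215, FDR 0.242) and -0.22 (SE 0.129, FDR 0.313). Across the 10 genes, 3 were separated upward (SLC39A10, TIMP3 and ZFP36L1) and 2 downward, beside 15% and 9.1% of all genes. ZFP36L1 enters that count as a description only, since its level in MV4-11 KO carried it past the low-count filter. UBQLN1 and SLC5A3 were at -8.01e-05 (interval -0.18 to 0.18) and 0.02 (interval -0.18 to 0.21). HIPK2 had values of 3.24 to 5.51 CPM in EV and 4.0 to 9.15 CPM in KO, and its interval ran from -0.60 to 1.56.

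In Molm-14, 1 of 9 genes was called, beside 2.40% of all genes (1.06% lower). TCF23 fell from 9.40, 7.52 and 9.74 CPM in EV to 2.52, 2.79 and 2.34 CPM in KO, on 56 to 74 counts against 15 to 21. The lowest EV library was at more than 2.5 times the highest KO library, and KO stood at 29.1% of EV, a log2 fold change of -1.78 (SE 0.233, FDR 1.63e-05 by edgeR). This is the largest change of any of the genes in a comparison of KO with EV, and it remained called on leaving out any of the 6 libraries, with FDRs of 2.04e-05 to 3.02e-04.

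SLC39A10 in Molm-14 measured 300.8, 297.5 and 298.6 CPM in EV and 244.9, 248.1 and 267.5 CPM in KO. All KO libraries were below EV, but the log2 fold change of -0.24 (SE 0.073) did not pass, with an FDR of 0.0974. DLG4 measured 6.71, 8.76 and 6.58 CPM in EV and 6.92, 4.78 and 3.43 CPM in KO, which overlapped, with a log2 fold change of -0.56 (SE 0.227, FDR 0.306). TCF23 and SLC39A10 were the 2 genes of 9 whose groups were separate, both downward, beside 8% of all genes. The remaining log2 fold changes ran from -0.38 for ZFP36L1, on 5 to 15 counts a library, to 0.11 for SLC5A3, which was the only one above 0. TIMP3 again had 0 counts in all 6 libraries, where 3 counts correspond to 0.337 to 0.504 CPM.

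In THP-1, edgeR called 0 of the 10 genes with KO, and DESeq2 called 0, beside 0.0897% of all genes called. None of the 10 had an unadjusted p under 0.05 in edgeR, where 8.01% of all genes did. The groups overlapped for all 10, where 13.6% of all genes were separate. TIMP3, which is abundant in this line, measured 53.9, 49.6 and 61.8 CPM in EV and 56.3, 60.1 and 61.3 CPM in KO, a log2 fold change of 0.11 (interval -0.13 to 0.35). TCF23 was at 0.28 (interval -0.03 to 0.58) and SLC39A10 at -0.04 (interval -0.20 to 0.12). HIPK2 had the most negative estimate, -0.53, with EV libraries at 15.9, 24.6 and 38.8 CPM and KO libraries at 14.2, 18.4 and 21.9 CPM, and an interval of -1.30 to 0.25. The groups overlapped, but within each of the 3 same-numbered pairs, which may be linked in this line, KO was below EV. The share of all genes with this pattern was not computed. With the replicate number as a block the estimate was -0.49 and did not pass (edgeR FDR 0.566), and on leaving out 1 library it ran from -0.16 (without EV 3) to -0.80 (without EV 1).

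**Figure D3:**
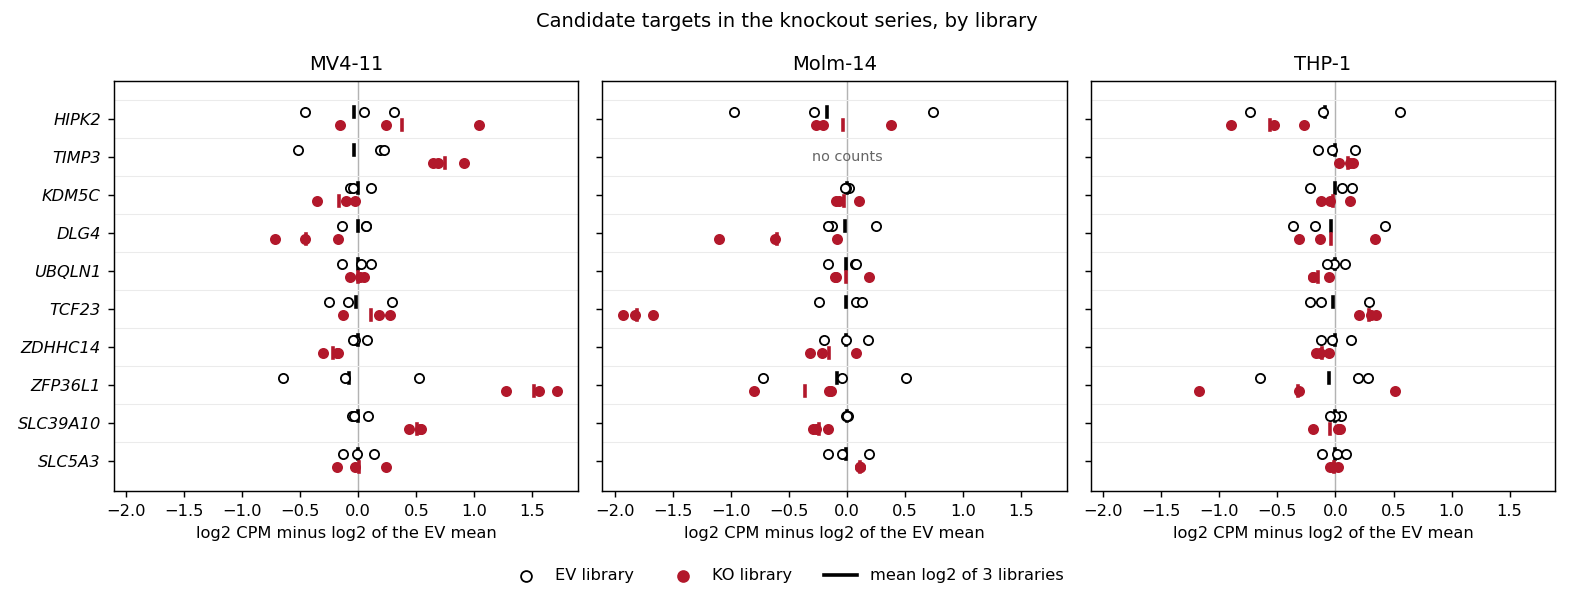
Level of each gene in each library of the knockout series, as log2 CPM minus the log2 of the mean CPM of the EV libraries of the same line, in MV4-11, Molm-14 and THP-1. Open circles are EV and filled circles KO libraries, and bars are means of 3. The KO libraries of SLC39A10 lie to the right of EV in MV4-11 and to the left in Molm-14, and those of TCF23 lie near -1.78 in Molm-14 alone.

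Whether the effect of KO differed between lines was tested as an interaction in the same edgeR model, in 3 comparisons that share the libraries of a line. For MV4-11 against Molm-14, 2 of 9 genes differed, beside 1.48% of all genes. The log2 fold change of SLC39A10 was 0.74 higher in MV4-11 than in Molm-14 (SE 0.108, FDR 2.31e-04), the values being 0.50 and -0.24. For TCF23 it was 1.89 higher (SE 0.280, FDR 2.76e-04), the values being 0.11 and -1.78. ZFP36L1 differed by 1.84 (SE 0.587) and did not pass, with an FDR of 0.120.

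Against THP-1, TCF23 in Molm-14 again stood out, and SLC39A10 in MV4-11 did so less firmly. For Molm-14 against THP-1, 1 of 9 genes differed, beside 0.766% of all genes, and the log2 fold change of TCF23 was 2.05 lower in Molm-14 (-2.05, SE 0.279, FDR 1.08e-04). For MV4-11 against THP-1, 1 of 10 differed, beside 0.193% of all genes, and this was SLC39A10, at 0.54 (SE 0.111, FDR 0.0274). That call was lost with only the libraries of both lines in the fit (FDR 0.105) and on leaving out any of MV4-11 EV 3, MV4-11 KO 1, MV4-11 KO 3, THP-1 EV 1, THP-1 EV 2 or THP-1 KO 3 (FDR 0.0823 to 0.107). TIMP3 was at 0.61 in this comparison (SE 0.251, FDR 0.461).

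**Figure D4:**
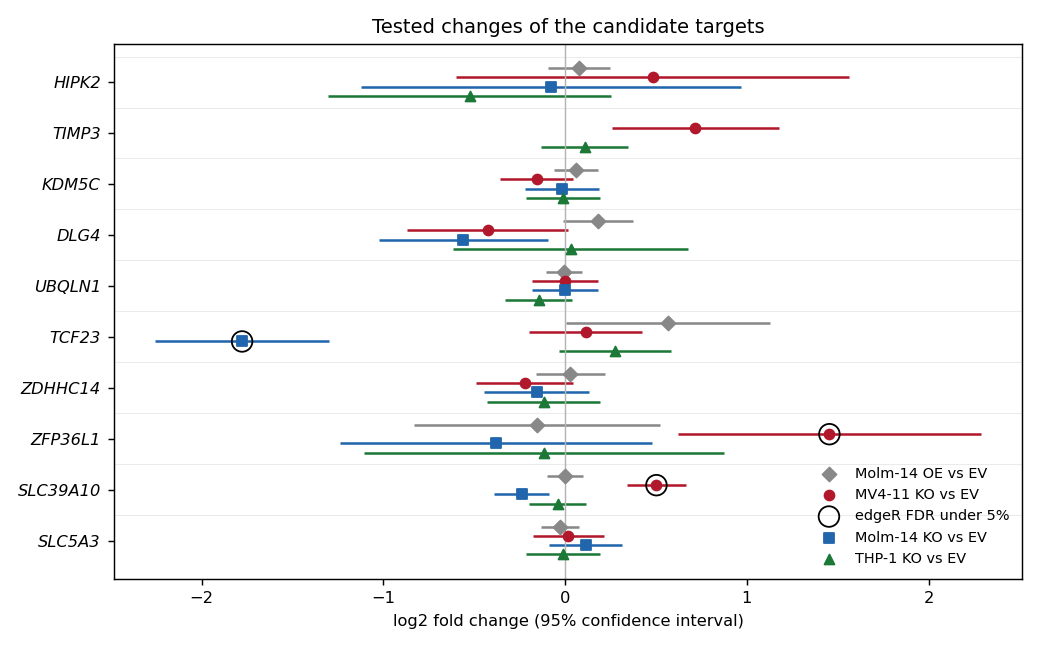
log2 fold change with 95% confidence interval of each gene in the 4 tested comparisons of OE or KO with EV. Grey diamonds are Molm-14 OE, circles MV4-11 KO, squares Molm-14 KO and triangles THP-1 KO, and a ring marks an edgeR FDR under 5%. The rings mark SLC39A10 (0.50) and ZFP36L1 (1.45) in MV4-11 KO and TCF23 (-1.78) in Molm-14 KO. That of ZFP36L1 is descriptive, since the gene passed the low-count filter only through MV4-11 KO.

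The EV libraries of the knockout series give the level of each gene in the 3 lines without MPC1 disruption. Per kilobase of exon, UBQLN1 was the most abundant of the 10 in MV4-11 (25.9 ± 2.21 CPM per kb, SD, n = 3) and THP-1 (34.0 ± 1.84), and SLC39A10 in Molm-14 (43.2 ± 0.238). In MV4-11, SLC5A3 (25.3 ± 2.32 CPM per kb) differed from UBQLN1 by less than their spread, and so did SLC39A10 (8.87 ± 0.461) and KDM5C (8.84 ± 0.590). ZFP36L1 had the lowest level of any detected gene in each line, at 0.112 to 0.214 CPM per kb. In THP-1, TIMP3 (12 ± 1.34 CPM per kb) and SLC5A3 (13.6 ± 0.953) overlapped, and HIPK2 (1.69 ± 0.741) and ZDHHC14 (0.976 ± 0.089) were neighbours whose means differed by less than the spread of HIPK2.

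The lines differed at most genes, and the counts of candidate targets called lay near or below that background. edgeR called 6 of 10 between Molm-14 and MV4-11 (background 61.7%), 7 of 10 between THP-1 and MV4-11 (background 67.5%) and 5 of 10 between THP-1 and Molm-14 (background 69.6%), in comparisons that share EV libraries. The largest range was that of TIMP3, at 53.9, 49.6 and 61.8 CPM in THP-1, 3.01, 3.09 and 1.85 CPM in MV4-11 and 0 counts in Molm-14. Its log2 difference between THP-1 and MV4-11 was 4.34 (SE 0.165, FDR 1.20e-16), and against a floor of 3 counts in each Molm-14 library it was at least 134-fold higher in THP-1 and at least 6.43-fold higher in MV4-11.

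SLC39A10 was highest in Molm-14, then THP-1, then MV4-11, with means of 299.0, 124.3 and 61.4 CPM and no overlap between lines. Its log2 difference from MV4-11 was 2.28 (SE 0.079) in Molm-14 and 1.02 (SE 0.079) in THP-1. SLC5A3 was higher in MV4-11 than in either other line, by a log2 difference of 0.79 from Molm-14 (-0.79 as Molm-14 minus MV4-11, SE 0.097) and 0.90 from THP-1 (-0.90, SE 0.098). Molm-14 and THP-1 overlapped for this gene (-0.11, interval -0.31 to 0.09). HIPK2 was higher in THP-1 than in MV4-11 (2.56, SE 0.429) and Molm-14 (2.07, SE 0.405), and DLG4 was lower in THP-1 than in both (-1.55, SE 0.255, and -1.48, SE 0.257).

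TCF23 was lower in Molm-14 than in MV4-11 (-1.08, SE 0.168) and THP-1 was above Molm-14 (1.28, SE 0.167), so the line in which it fell with KO was the line with the lowest EV level. In these libraries ZDHHC14 was highest in MV4-11 (-0.46, SE 0.132, in Molm-14 and -0.76, SE 0.138, in THP-1). UBQLN1 was called higher in THP-1 than in MV4-11 (0.39, SE 0.089), and its small difference between Molm-14 and MV4-11 (0.22, SE 0.089, FDR 0.0376) lost its call under RLE scaling, with DESeq2, with no filter on low counts and with only the groups compared in the fit. KDM5C was not called between any of the lines, with log2 differences of -0.16, -0.08 and 0.08 and 95% intervals that ran from -0.36 to 0.29 at their widest. ZFP36L1, on 3 to 15 counts a library, was not called either, with a largest difference of 0.90 (interval -0.0012 to 1.81).

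**Figure D5:**
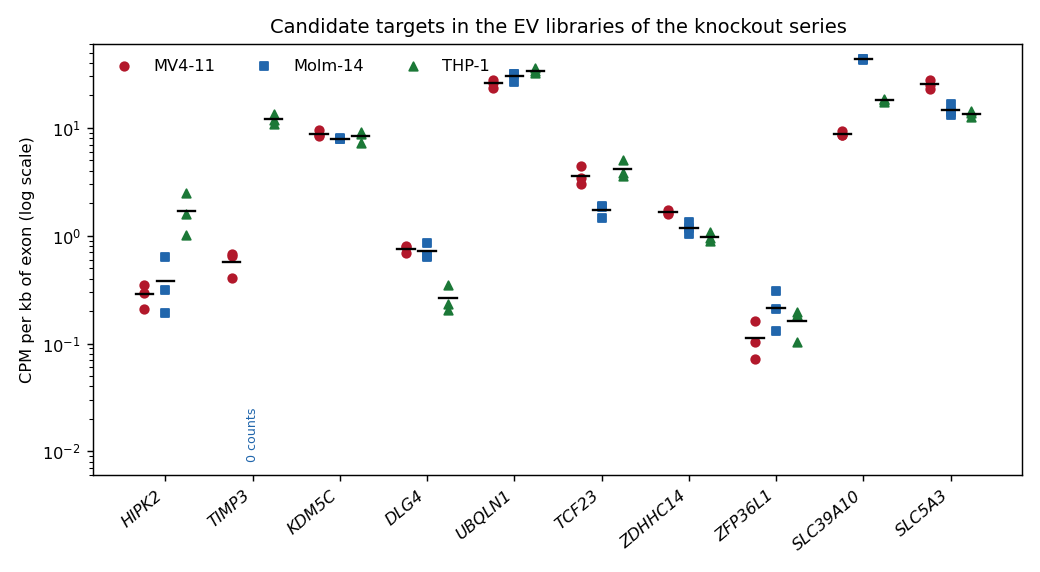
Level of each gene in the EV libraries of the knockout series, in CPM per kilobase of exon on a log axis, with 1 point for each library and a bar at the mean of 3. TIMP3 runs from 0 counts in Molm-14 to 12 CPM per kb in THP-1, and KDM5C is nearly level across the lines, at 7.91 to 8.84.

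The EV libraries of MV4-11 and Molm-14 occur in both series, and the difference between the lines can be read in each, though the tables list different numbers of genes and levels were not compared between them. For SLC5A3 the log2 difference of Molm-14 minus MV4-11 was -0.71 (SE 0.049) in the overexpression series and -0.79 (SE 0.097) in the knockout series. For SLC39A10 it was 1.08 (SE 0.049) and 2.28 (SE 0.079), and for TCF23 -2.40 (SE 0.244) and -1.08 (SE 0.168). For UBQLN1 it was 0.78 (SE 0.049) and 0.22 (SE 0.089), and for HIPK2 0.22 (SE 0.082) and 0.49 (SE 0.502). In these cases the direction was shared and the size was not always. The other 4 genes had values of opposite sign. For KDM5C it was 0.85 (SE 0.059) and -0.16 (SE 0.098), and for ZFP36L1 -0.84 (SE 0.296) and 0.90 (SE 0.441). For DLG4 it was 0.27 (SE 0.093) and -0.07 (SE 0.208), and for ZDHHC14 0.05 (SE 0.090) and -0.46 (SE 0.132), so the higher level of ZDHHC14 in MV4-11 was seen in the knockout series alone. The vector and the series cannot be told apart here.

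Reads of neighbouring genes could enter some of these values. Whether counting used the strand, which bears on overlaps with genes of the opposite strand only, is not given in the sources used here. SLC5A3 lies within MRPS6, a mitochondrial ribosomal protein gene on the same strand with which it shares 265 bases of exon. MRPS6 was also lower in MV4-11 OE, at 34.2 ± 2.01 CPM (SD, n = 3) against 39.5 ± 1.73 in EV, with a log2 fold change of -0.21 (SE 0.073, FDR 0.521) and no overlap. The ratio of SLC5A3 to MRPS6 counts was 4.13 ± 0.330 in OE and 4.29 ± 0.133 in EV, which overlapped. ZFP36L1 shares 512 bases of exon, the most of any of the genes, with the lncRNA ENSG00000289626 on the same strand. Neither series lists counts for this lncRNA, so its level could not be read. HIPK2 overlaps TBXAS1, the thromboxane synthase gene, on the opposite strand, with 0 shared exon bases. TBXAS1 was also lower in MV4-11 OE, at 7.49 to 10.02 CPM against 10.45 to 11.71 CPM in EV, without overlap. Its log2 fold change was -0.38 (SE 0.122, FDR 0.420), beside -0.35 for HIPK2, and whether reads of either gene were counted for the other was not tested. TIMP3 lies in an intron of SYN3 on the opposite strand, and SYN3 had at most 2 counts in any library. DLG4 shares 49 bases with ACADVL and UBQLN1 117 bases with UBQLN1-AS1, both antisense. ACADVL, at 277.6 CPM in MV4-11 EV against 29.0 for DLG4, did not move with DLG4, having a log2 fold change of 0.03 (SE 0.055) in MV4-11 OE.

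Genes that act with these genes or resemble them were read from 4 lists that together held 59 genes. The lists covered the miRNA machinery (such as DROSHA, DICER1 and AGO2), close relatives of the 10 genes (such as HIPK1 and TIMP1), myo-inositol metabolism and the handling of zinc. With OE, edgeR called 0 of 49 tested list genes in MV4-11 and 0 of 49 in Molm-14, where 0.177% and 0.0057% of all genes were called, so that few calls would be found in any list of this size. An unadjusted p under 0.05 was found for 4 and 3 of the 49, beside 5.9% and 4.38% of all genes, and DESeq2 called 0 in either line. The median log2 fold change of the 4 lists was 0.0046 in MV4-11 and 0.0048 in Molm-14, beside 0.0069 and 0 over all genes. Of 13 interferon genes tested 0 were called in either line by edgeR or DESeq2 and 0 had an unadjusted p under 0.05, although their median log2 fold change in MV4-11 was 2.30, with the 2 libraries named above standing apart.

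In MV4-11 KO, 3 of 51 list genes were called higher and 1 lower, against the background of 5.41%, and DESeq2 called 4. PRKRA, a partner of Dicer, was higher (log2 fold change 0.41, FDR 0.0196), as were IMPA1, which releases myo-inositol from its phosphate (0.35, FDR 0.0281), and SLC30A6, a zinc transporter of the Golgi (0.33, FDR 0.0431). SLC39A7, which releases zinc from the endoplasmic reticulum, was lower (-0.28, FDR 0.0424). SLC39A10 and SLC39A7, both zinc transporters of the ZIP family, thus changed in opposite directions in this line. In Molm-14 KO and THP-1 KO 0 of the 51 were called by edgeR or DESeq2, beside 2.40% and 0.0897% of all genes by edgeR. An unadjusted p under 0.05 was found for 7 and 6 of the 51, beside 10.7% and 8.01% of all genes. Between lines, the effect of KO differed for 1 of the 51, MT2A, a zinc-binding metallothionein (-1.03 as Molm-14 minus THP-1, FDR 0.0290 by edgeR). Of the 14 interferon genes, 0 were called in MV4-11 KO and THP-1 KO (1 at an unadjusted p under 0.05 in each, beside 22.3% and 8.01% of all genes, and 0 by DESeq2), and in Molm-14 KO OAS3 alone was called, lower by edgeR (-0.97, FDR 0.0079).

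The gene whose log2 CPM followed each candidate target most closely over the 18 knockout series libraries was found among 14489 others, as a description of levels set mostly by the difference between lines. SLC39A10 was followed by ARL1 (r = 0.991), SLC5A3 by GTF2A1 (0.972), HIPK2 by LPP (0.970) and TCF23 by CATIP-AS1 (0.949). ZDHHC14 was followed by TTN-AS1 (0.941), DLG4 by ZBTB16 (0.935) and UBQLN1 by UBE2B (0.901). KDM5C and ZFP36L1 had the weakest partners, HSF1 (0.828) and HELQ (0.755), and why these were weaker was not tested. The libraries of a line share its genotype and those of a group its vector, so the 18 points are not independent.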

How the data were processed

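RNA of AML cell lines was sequenced after ribosomal RNA depletion with a stranded total RNA kit. The authors trimmed reads, aligned them to GRCh38 with STAR and assigned them to genes with featureCounts, and deposited 1 table of raw counts per gene for each series. Per the submitters' processing notes the tools were cutadapt 1.16, STAR 2.7.6a, featureCounts 1.6.3 and DESeq2 1.30.1. Groups came from the labels, and all 30 libraries were used. Replicate pairs differed by more than sampling noise (chi-square per degree of freedom 1.50 to 15.8).

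From these counts, edgeR 4.0.16 in R 4.3.3 was run on each series with filterByExpr, TMM scaling, a mean per group, the robust quasi-likelihood test and Benjamini-Hochberg adjustment over all genes tested, calling an FDR under 5%. CPM used TMM-scaled library sizes. On simulated data the fit recovered 200 (Molm-14 OE) and 194 (Molm-14 KO) of 200 genes seeded with a change, with 10 and 9 false calls. The seeded changes were larger than most of those of the candidates, and genes at low levels were not seeded. Power for the candidates was therefore not tested. Alternatives were RLE scaling, DESeq2 1.42.0, no filter, a replicate block, a fit of only the groups compared, and leaving out each library. Same-numbered libraries deviated together for all 3 numbers in THP-1 alone (correlations 0.385, 0.301 and 0.619), so numbers may pair libraries there. EV 3 and KO 3 of THP-1 also had the fewest counts of their groups (5339360 and 5832662). What these correlations reflect was not tested. Floors take 3 counts and cover counting error only, since PCR copies are not independent molecules. Symbols, exon lengths and UTRs came from GENCODE 44, which matched 60419 and 56948 gene IDs. The genes named were the 10 candidates, MPC1 and MIR133A1HG, genes overlapping a candidate, the most correlated gene of each (that of TIMP3 is not reported here), and up to 3 called genes in each direction per list. The candidates and lists were chosen with earlier results of these data known.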

Additional observations from a re-analysis of the deposited data

Results flagged for a closer look

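For SLC39A10 and TCF23 the effect of MPC1 KO differed between lines by a test of the difference itself. Between MV4-11 and Molm-14 2 of 9 genes were called, beside 1.48% of all genes. Between MV4-11 and THP-1 it was 1 of 10, beside 0.193%, and between Molm-14 and THP-1 1 of 9, beside 0.766%. The log2 fold change of SLC39A10 with KO was 0.74 higher in MV4-11 than in Molm-14 (edgeR FDR 2.31e-04) and 0.54 higher than in THP-1 (FDR 0.0274). In MV4-11 all 3 KO libraries of SLC39A10 were above all 3 EV libraries, a pattern of 15% of all genes. In Molm-14 all 3 were below, as for 8% of all genes. The log2 fold change of TCF23 was 1.89 higher in MV4-11 than in Molm-14 (FDR 2.76e-04), and as Molm-14 minus THP-1 it was -2.05 (FDR 1.08e-04). TCF23 was lower in all 3 KO libraries of Molm-14, and its KO and EV libraries overlapped in MV4-11 and THP-1. The differences of both genes between MV4-11 and Molm-14 were called on leaving out any 1 library of these lines, with FDRs of 3.20e-04 to 0.0018 for SLC39A10 and 3.46e-05 to 0.0023 for TCF23. The difference of SLC39A10 from THP-1 was not. No cause was tested.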

How the results depend on the processing

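Under RLE scaling, DESeq2, no filter on low counts, a replicate block, a fit of only the groups compared and the removal of single libraries, no value of the 10 genes that passed the threshold changed direction. In MV4-11 KO the number called fell from 2 to 1 with DESeq2 and with only the groups compared, and was 1 to 2 on leaving out a library, as ZFP36L1 was lost. The single difference between MV4-11 and THP-1 fell to 0 with only the groups compared and was 0 to 1 on leaving out a library. UBQLN1 between EV Molm-14 and MV4-11 was lost with RLE (FDR 0.0525), DESeq2 (0.0617), no filter (0.0540) and only the groups compared (0.119), and between THP-1 and Molm-14 it was gained with RLE (0.0196) and DESeq2 (0.0218). Leaving out 1 library ended that first call of UBQLN1 (without MV4-11 EV 1, FDR 0.177, MV4-11 EV 3, 0.0604, Molm-14 EV 2, 0.119, or Molm-14 EV 3, 0.178), and gave calls for ZFP36L1 between the same lines (without MV4-11 EV 1, 0.0444, or Molm-14 EV 1, 0.0386), TCF23 between THP-1 and MV4-11 (without MV4-11 EV 1, 0.0444) and ZDHHC14 between THP-1 and Molm-14 (without Molm-14 EV 1, 0.0320, or THP-1 EV 1, 0.0472). Counting 8mers alone is a narrower definition, which 5 genes met where 8 had an 8mer or 7mer-m8 site. The cause of the changed calls was not tested, except that fewer libraries enter the smaller fits.

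With the replicate block within lines, the count called in MV4-11 KO was 3, TIMP3 being added, and the block changed no other call. In MV4-11 and Molm-14 libraries share only a number. The block across lines for EV comparisons, which called 6, 7 and 5 genes, and the removal of 2 interferon-high libraries were chosen after seeing the data.

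Counts over all genes moved more. MV4-11 OE had 31 genes called, and 9 with only its own groups, 15 with the block, 67 with DESeq2, 76 without the 2 libraries, 123 with no filter, 12 without OE 2 and 47 without OE 1. Molm-14 OE had 1, and 2 with the block, 5 with DESeq2, 7 with no filter and 195 when fitted alone, none of them among the candidates. MV4-11 KO had 784, and 356 when fitted alone, 1474 with the block, 133 without EV 3, 158 without KO 1, 287 without EV 2, 331 without KO 2 and 1400 without EV 1. Molm-14 KO had 348, and 183 without KO 2, 218 without EV 2 and 231 without KO 1. THP-1 KO had 13, and 4 when fitted alone, 30 with no filter, 3 without KO 2, 4 without KO 1, 5 without EV 1 or EV 3 and 7 without EV 2. The differences between lines had 215 (MV4-11 and Molm-14) and 28 (MV4-11 and THP-1), and 388 and 52 with the block, and 339 and 80 with no filter. Without MV4-11 EV 1 they were 369 and 53, without MV4-11 EV 3 105 and 18, and without MV4-11 KO 1 115 and 18, and the first was 116 without Molm-14 EV 3 and 117 without Molm-14 KO 2.

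ZFP36L1 in the knockout series rested on 3 to 19 counts a library, and TIMP3 had 0 counts in the Molm-14 libraries of both series. Why these counts were low was not tested.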
